A study of Bos taurus with 252 samples.

Results

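The change in blood gene expression between day 21 and day 56 was followed in 42 steers, with the day 56 library of each steer set against its own day 21 library. These 84 libraries, 2 from each steer, were all those of day 21 and day 56 in a series that holds 1 library of each of the 42 steers on each of 6 days. There were 6 steers in each of 7 groups: a negative control group left untreated (NC), and groups that received 1 subcutaneous dose, on day 0, of enrofloxacin (ENRO), florfenicol (FLOR), tulathromycin (TULA), tildipirosin (TILD), ceftiofur (CEFT) or oxytetracycline (OXYT). The steers were crossbred and of mixed breeds, and their age was not given in the sources used here. All steers, NC included, had been given tildipirosin, vaccines, a growth implant and dewormers before they came to the trial. Each group was kept in a pen of its own and the groups were sampled in a fixed order, so drug, pen and order cannot be told apart. Libraries ran on 3 lanes of 14 steers each, and all libraries of a steer shared a lane. NC and ENRO lay on lane 1, TULA on lane 2, CEFT and OXYT on lane 3, while FLOR was split between lanes 1 and 2 (2 and 4 steers) and TILD between lanes 2 and 3 (4 and 2 steers). The question was what still moved in the blood late in the receiving period, whatever drug had been given.

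Whole blood RNA is a mixture of leukocyte RNA, platelet RNA and the RNA that young red cells carry into the circulation. Hemoglobin transcripts come from these young red cells, which translate globin messages until their RNA is lost. Eosinophils are granulocytes that depend on interleukin 5 and are known for their role in parasite defence and allergy, whereas neutrophils are the granulocytes that reach a bacterial focus first.

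The 84 libraries held from about 26500000 to about 66200000 counts, and the total did not separate the days (mean log2 ratio of day 56 over day 21 -0.083, SD 0.313, n = 42, two-sided sign-flip permutation test p = 0.0919). CD3E of T cells, CD79A of B cells, CD14 of monocytes, HBB of red cells and PF4 of platelets had counts in every library of the series, whereas CSF3R was not among the gene symbols used. Levels below are CPM, counts scaled to library size with TMM factors and not to gene length. In a bulk sample, fewer cells of a type and less RNA per cell cannot be told apart, so each level below is a level in blood.

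A total of 1823 of 19056 genes changed between day 21 and day 56, 876 higher and 947 lower on day 56 (edgeR quasi-likelihood test with steer as a block, false discovery rate (FDR) below 0.05). This was 9.57% of the genes tested, 4.6% higher and 4.97% lower. Most changes were small. The median size was 0.183 on the log2 scale among the genes called and 0.0732 among all genes. More than 2-fold differences went mainly 1 way, with 91 genes lower and 7 higher. Between day 14 and day 21 a total of 2875 genes changed (15.1%, with 8.48% higher and 6.61% lower), and between day 0 and day 14 a total of 11511 changed (60.4%, with 30.2% higher and 30.3% lower). The split of the day 56 calls depended on scaling. By library totals alone 3961 genes were higher and 314 lower (92.7% higher, against 48.1% with TMM), and the median of all genes moved to 0.082. With upper quartile scaling 1017 were higher and 728 lower (58.3% higher). Within lanes, 183 genes were higher and 132 lower on lane 1, 189 and 300 on lane 2, and 2 and 4 on lane 3, with 14 steers each.

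The hemoglobin share of the libraries fell. It ran from 0.0703% to 20.4% on day 21 with a median of 3.36%, and from 0.0208% to 12% on day 56 with a median of 0.334%. The medians of day 0 and day 14 were 0.224% and 3.07%. Within steers the log2 ratio of day 56 over day 21 was -2.67 ± 2.02 (SD, n = 42), a 6.36-fold lower share, and 38 of 42 steers were lower (two-sided sign-flip permutation test, p = 1e-05, the smallest that these resamples can give). By lane, the mean log2 ratio was -3.17 ± 1.44, -2.36 ± 1.87 and -2.48 ± 2.63 (lanes 1, 2 and 3, SD, n = 14 each). The ranges of both days overlapped. The steers that were higher on day 56 were Ceft4 (5.15% to 12%), Oxyt9 (0.0703% to 0.321%), Tula5 (0.199% to 0.356%) and Tula3 (0.529% to 0.557%).

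**Figure D1:**
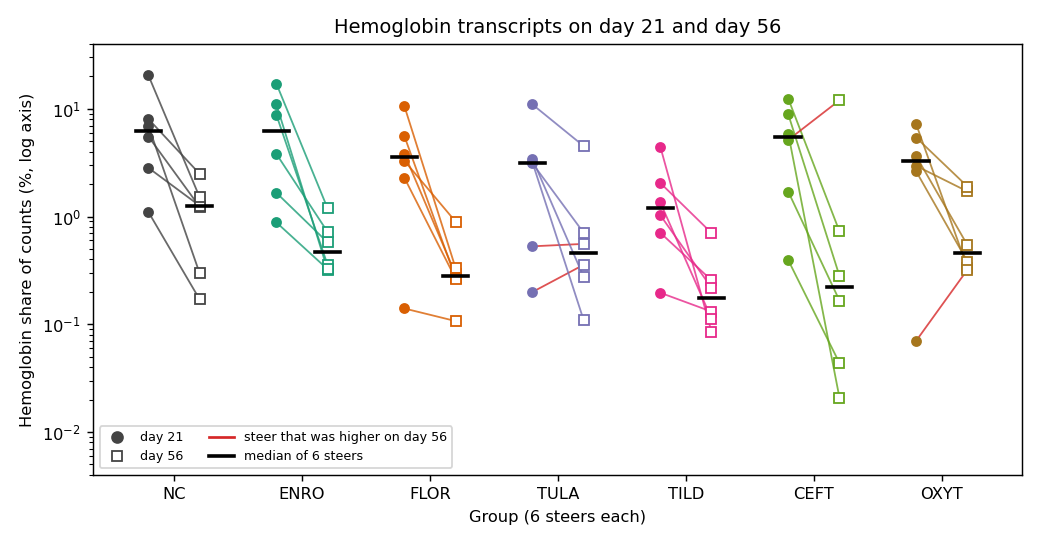
Hemoglobin share of the counts (%, log axis) for each steer on day 21 (filled circles) and day 56 (open squares), by group, with lines joining the libraries of a steer and black bars for the median of 6 steers. The share fell in 38 of 42 steers, and red lines mark the 4 steers in which it did not.

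Since the hemoglobin share moved with the day in most steers, the fit was repeated with the log2 share of each library as a covariate, a choice made after seeing the data. It left 61 genes higher (0.32% of genes) and 44 lower (0.231%), of which 102 were among the 1823 called without the covariate. Of those 1823 genes, 1749 kept the sign of their change. The share fell in 38 of 42 steers, so covariate and day overlap, and a call can be lost without a smaller change. In the cell cycle list, for example, 11 genes were lower with the covariate and 24 without it, at medians of -0.27 and -0.21. In other lists the estimate itself moved toward 0 or past it. The median was 0.28 with the covariate and -0.62 without it for the red cell membrane list, and -0.0079 and -0.15 for the heme list. A lost call alone therefore cannot show how much of a change goes with the share. Without Ceft4, the steer with the highest share on day 56, 843 genes were higher and 874 lower. How much of each change below goes with the amount of red cell RNA was not tested beyond this covariate, and its counts are given for each group of genes.

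Genes of red cells were prominent among the largest decreases. All 10 genes of the globin list that were tested fell, with a median log2 fold change of -2.48, against 0.00049 over all genes. HBA1, an alpha globin gene, ran from 322 to 140000 CPM with a median of 15100 on day 21 and from 44.7 to 63000 with a median of 1280 on day 56 (log2 fold change -2.95, SE 0.368, FDR 4.68e-07, lower in 38 of 42 steers). HBB, the adult beta chain, went from a median of 14100 CPM (193 to 109000) to 1630 (132 to 49700), a log2 fold change of -2.60 (SE 0.338, FDR 8.03e-07). The changes of the alpha globin copies HBA (-2.81) and HBA1 rest on near-identical sequences between which reads can be divided. HBM and HBQ1, minor globins of the alpha cluster, fell by 2.13 and 3.01. AHSP, the chaperone of free alpha chains, fell by 0.83.

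Part of heme synthesis fell as well. ALAS2, the red cell enzyme that starts heme synthesis, had a median of 361 CPM on day 21 (17 to 2760) and 67.5 on day 56 (8.19 to 939), a log2 fold change of -2.27 (SE 0.294, FDR 8.03e-07, lower in 37 steers). UROD, a later enzyme of the same path, fell by 0.37 and was lower in 36 steers. In all, 3 of 8 genes of the list fell (4.97% of all genes did), and UROS, another enzyme of the path, was at -0.085 (FDR 0.0786).

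Among 23 genes of the red cell membrane and of erythroid regulators, 14 fell and 2 rose, with a median of -0.62. Over all genes 4.97% fell and 4.6% rose. SLC4A1, the anion exchanger band 3, went from a median of 5.82 CPM (0.427 to 37.3) to 1.60 (0.163 to 41.7) and fell by 1.96. EPB42, GYPB, DMTN and ADD2, which encode proteins of the membrane or its skeleton, fell by 1.38, 1.58, 1.88 and 2.09. ANK1, an ankyrin of the membrane skeleton, was among those that rose (0.22). EPB41, a skeleton gene and the member with the highest CPM, was at -0.061 (FDR 0.283). Outside the lists, the largest decreases that at least 34 steers shared included REEP1, a protein that shapes the endoplasmic reticulum, from 20.8 to 3.45 CPM (log2 fold change -2.39, SE 0.271, FDR 9.73e-08), ARG1, the arginase of the urea cycle, from 18.3 to 4.22 CPM (-2.16, SE 0.259) and CA2, a carbonic anhydrase of red cells, from 35.9 to 10.2 CPM (-1.60, SE 0.198). IFRD2 (-1.41) and BOLA-DQA2 (-1.47), a polymorphic class II gene, were also among them. The globin genes make up the hemoglobin covariate, so that fit says nothing about them. Outside the globins, no gene of the heme or membrane lists stayed lower with the covariate by the quasi-likelihood test, REEP1 was at -0.17 (FDR 0.54) and ANK1 stayed higher.

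Genes of eosinophils were prominent among the increases. Of 12 genes of the eosinophil and basophil list 5 rose (4.6% of all genes did), and these were IL5RA, ALOX15, CEBPE, CCR3 and SIGLEC8. IL5RA, the interleukin 5 receptor alpha chain, had a median of 6.48 CPM on day 21 (1.67 to 35.1) and 13.4 on day 56 (3.66 to 62.1), with a log2 fold change of 0.88 (SE 0.112, FDR 7.02e-07), and it was higher in 40 of 42 steers. ALOX15, a lipoxygenase abundant in eosinophils, went from a median of 31.1 CPM (5.11 to 218) to 65.6 (10.5 to 465), a change of 0.98 (SE 0.132, FDR 1.33e-06, 37 steers). CEBPE, a transcription factor of late granulocyte maturation, and CCR3, the eotaxin receptor, rose by 0.65 and 0.37. SIGLEC8, a lectin of eosinophils and mast cells and the member of the list with the highest CPM, went from 437 to 507 CPM, a change of 0.15 (SE 0.0422, FDR 0.0184). The ranges of day 21 and day 56 overlapped for each of the 5. The summed level of the list, most of it from SIGLEC8, had a median of 609 CPM on day 21 (316 to 972) and 701 on day 56 (352 to 1250). The mean log2 change of the list was above 0 in 31 of 42 steers. Apart from these 5, no member had an unadjusted p below 0.05 by the quasi-likelihood test.

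The largest increases shared by at least 34 steers were headed by ALOX15, ALOX5, IL5RA, SMPD3, HPGD and CEBPE. ALOX5, the enzyme that starts leukotriene synthesis, went from a median of 11 CPM (1.35 to 77.7) to 27.7 (6.24 to 160), a log2 fold change of 0.94 (SE 0.129, FDR 1.85e-06, higher in 38 steers). HPGD, which breaks down prostaglandins, rose from 5.95 to 10.3 CPM (0.70). SMPD3, a neutral sphingomyelinase, rose from 5.09 to 8.38 CPM (0.77), and GPR4, a proton-sensing receptor, from 6.42 to 9.73 CPM (0.56). CUEDC1 (0.52), UVRAG (0.51), FBP1 (0.49), WNT5A (0.48) and CAMK1 (0.42) completed these 12 genes. With the hemoglobin share as a covariate none of the eosinophil list passed (list median 0.23, against 0.14 without it, IL5RA 0.50, FDR 0.201, and ALOX15 0.75, FDR 0.104), while SMPD3 (0.70, FDR 0.0494), CUEDC1, UVRAG and WNT5A still passed. Within lanes, IL5RA changed by 1.06 (FDR 0.000366), 1.0 (FDR 0.0223) and 0.58 (FDR 0.28) on lanes 1, 2 and 3.

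Some genes of mature neutrophils also rose, where 4.6% of all genes were higher and 4.97% lower. In the list of mature neutrophils 6 of 14 genes rose, with a median of 0.25, and the mean change of the list was above 0 in 36 of 42 steers. CXCR1, a receptor for interleukin 8, went from a median of 174 CPM (51.4 to 372) to 230 (110 to 396), a change of 0.37 (SE 0.0667, FDR 0.000148). S100A8 (0.40), a calcium-binding protein of the cytosol, MMP9 (0.33), a gelatinase, VNN2 (0.25), a pantetheinase on the cell surface, and MGAM (0.35), a glucosidase, also rose. The medians of this list differed by lane, at 0.32, 0.30 and 0.10 on lanes 1 to 3. VNN2 passed with the hemoglobin covariate (0.29, FDR 0.0469). Of 18 granule protein genes 1 rose and 1 fell, shares near those of all genes. MPO, the myeloperoxidase, went from 2.07 to 3.29 CPM (0.61), and CATHL5, a cathelicidin of a family with near-identical members, fell by 1.31 at a median below 1 CPM. In the monocyte list CSF1R (-0.21), the receptor for the growth factor of these cells, CX3CR1 (-0.18) and CD86 (-0.14) fell, 3 of 14 genes, while LYZ, lysozyme, the member with the highest CPM, was at 0.012 (FDR 0.948). By library totals alone, none of the 14 monocyte genes was lower and 1 was higher.

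**Figure D2:**
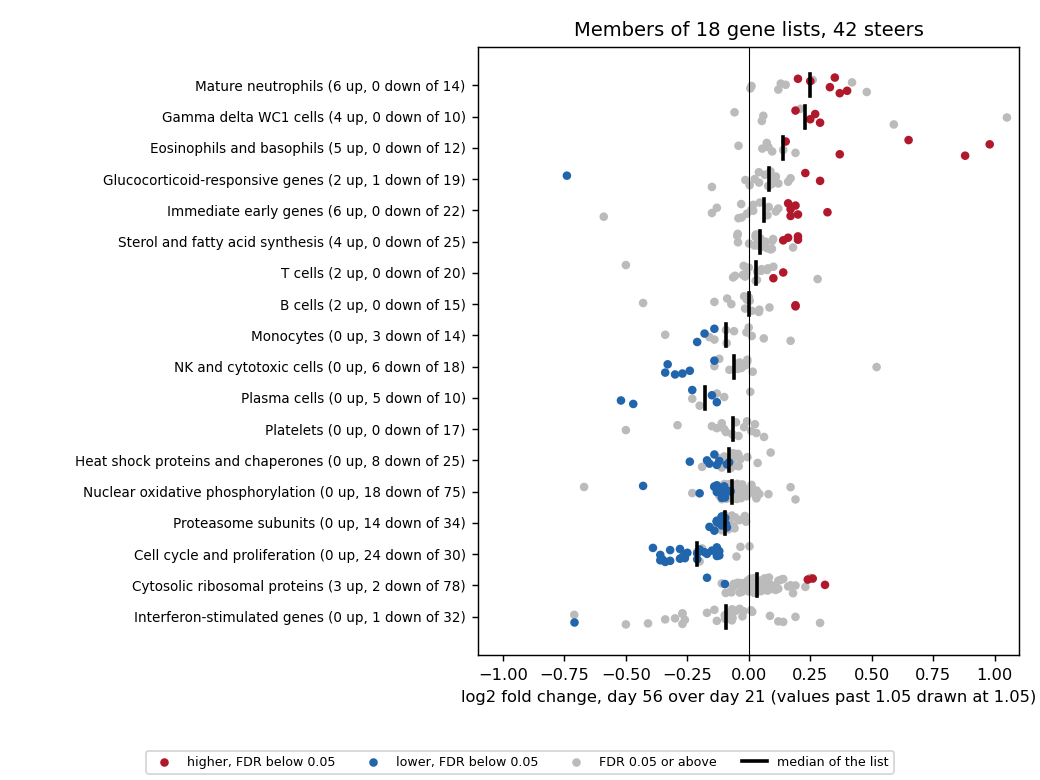
Log2 fold change of day 56 over day 21 for each tested member of 18 gene lists, as points, with black bars for the list medians. Red points were higher and blue points lower at an FDR below 0.05, and 24 of 30 cell cycle members are blue. CD163L1 of the gamma delta list (1.55) is drawn at the edge of the axis.

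Signals of inflammation and of acute transcription shifted upward in a few members. Of 22 cytokine and chemokine genes 4 rose. IL1B, a fever-causing cytokine, went from a median of 174 CPM (78.2 to 345) to 218 (126 to 417), a change of 0.29 (SE 0.0562, FDR 0.000299) (0.42, FDR 0.0261, with the covariate). OSM and IL18, further cytokines of myeloid cells, rose by 0.31 and 0.30, and IL16 by 0.088. Of 22 immediate early genes 6 rose, among them JUNB (0.20), EGR2 (0.32), IER5 (0.17) and ZFP36 (0.19), which binds and destabilises cytokine messages. SOCS3, which brakes cytokine receptor signaling and was named after its values were seen, went from 156 to 195 CPM (0.33, SE 0.051, FDR 1.7e-05). Of 19 genes that respond to glucocorticoids, SGK1 (0.29) and NFKBIA (0.23) rose and PDK4 fell. Toll-like receptors and adaptors gave MYD88 (0.14) higher and TLR7 (-0.14) lower of 17. The shares of this Toll-like list lay near those of all genes (4.6% higher and 4.97% lower). In the cytokine and immediate early lists the share of genes that rose lay above 4.6%. In the NF-kB pathway NFKBIA, its inhibitor, was the 1 gene of 22 that changed, again near the share of all genes that rose. With the hemoglobin covariate IL1B and SOCS3 (0.40, FDR 0.0247) passed, and no other gene of these lists did.

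A few T cell and B cell genes and 4 of 10 WC1+ gamma delta genes rose, where 4.6% of all genes did. Of 20 T cell genes ZAP70 (0.14) and CD247 (0.10), a kinase and a chain of the T-cell receptor complex, rose, while CD3E was at 0.033 (FDR 0.687). Of 28 T-cell receptor signaling genes those 2 and PLCG1 (0.070) rose. Of 15 B cell genes CR2 (0.19), the complement receptor, and BLK (0.19), a kinase of B cells and of gamma delta T cells, rose, and CD79A was at 0.043 (FDR 0.652). Of 10 genes linked to the WC1+ gamma delta T cells that are abundant in young cattle 4 rose, WC1.3 from 197 to 244 CPM (0.29, SE 0.0458, FDR 2.39e-05), WC1-12 (0.25), the transcription factor SOX13 (0.27) and BLK. WC1 genes are copies of one another, so their reads may be divided between them.

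Some genes of cytotoxic cells and of plasma cells fell, where 4.97% of all genes did. Of 18 NK and cytotoxic genes 6 fell, namely GZMA (-0.34), CCL5 (-0.33), NKG7 (-0.30), PRF1 (-0.27), GZMK (-0.24) and TBX21 (-0.14). PRF1, the pore-forming perforin, went from a median of 139 CPM (65.9 to 308) to 128 (63.1 to 258) and was lower in 32 of 42 steers. Of 10 plasma cell genes 5 fell, led by TNFRSF17 (-0.52), the receptor BCMA, MZB1 (-0.47), a chaperone of antibody secretion that went from 64.7 to 52.5 CPM, and SEC11C (-0.23), a part of the signal peptidase. IRF4 (-0.15) and XBP1 (-0.13), transcription factors of these cells, fell as well. With the hemoglobin covariate none of the T, B, plasma, cytotoxic or gamma delta genes passed, while the list medians were at -0.26 for plasma cells (-0.18 without it), -0.12 for cytotoxic cells (-0.062), 0.26 for gamma delta cells (0.23) and 0.028 for T cells (0.03). By library totals alone the median of the cytotoxic list turned to 0.02, with 2 genes still lower, and 3 plasma cell genes stayed lower.

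Genes of cell division fell. Of its 30 genes 24 fell, against 4.97% of all genes, the median was -0.21, and the mean of the list was lower in 35 of 42 steers. BIRC5, survivin of the dividing spindle, went from a median of 20 CPM (13.4 to 38.2) to 16.5 (10.2 to 24.8), a change of -0.32 (SE 0.0415, FDR 7.18e-07, lower in 37 steers). CDC20, which starts the exit from mitosis, went from 21.3 CPM (12.5 to 42.7) to 16.6 (9.50 to 27), a change of -0.39 (SE 0.0518, FDR 1.29e-06). The mitotic cyclins CCNB1 and CCNB2 fell by 0.36 and 0.35, and MKI67, the proliferation antigen Ki-67, by 0.34. The replication helicase genes MCM2 to MCM6 fell by 0.17 to 0.26. STMN1, stathmin, which acts on microtubules and was the member with the highest CPM, was at -0.034 (FDR 0.618). The list median lay at -0.19, -0.24 and -0.22 on lanes 1 to 3 and between -0.12 in TULA and -0.37 in OXYT. With the hemoglobin share as a covariate 11 of the 30 genes stayed lower, BIRC5 at -0.32 (FDR 0.0247) and CDC20 at -0.40 (FDR 0.0261). By library totals alone 14 stayed lower.

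No list of fatty acid use was among the lists, and the genes of it given here are single cases. CPT1A, the gatekeeper of fatty acid entry into mitochondria, and SLC25A20, the carrier that takes acylcarnitines across the inner membrane, were named after their values were seen. CPT1A had a median of 54.7 CPM on day 21 (28.2 to 107) and 36.2 on day 56 (18.2 to 77.6), a change of -0.57 (SE 0.0641, FDR 9.73e-08), and it was lower in 39 of 42 steers. SLC25A20 went from 129 CPM (92.4 to 174) to 110 (87.3 to 146), a change of -0.24 (SE 0.0289, FDR 2.38e-07). PDK4, of the glucocorticoid list, the kinase that holds pyruvate back from oxidation, went from 9.17 to 5.88 CPM (-0.74, SE 0.109, FDR 6.48e-06, lower in 37 steers). Of 25 sterol and fatty acid synthesis genes 4 rose, where 4.6% of all genes did. Among the 4 were SCD (0.20), the stearoyl-CoA desaturase, FASN (0.16), the fatty acid synthase, and INSIG1 (0.14), a brake on sterol synthesis. With the covariate CPT1A was at -0.40 (FDR 0.0531), SLC25A20 at -0.22 (FDR 0.0261) and PDK4 at -0.52 (FDR 0.197), and none of the 25 synthesis genes passed. FCGRT, the receptor that recycles IgG and also named after its values were seen, went from 110 CPM (61 to 177) to 83.8 (56.8 to 141), a change of -0.34 (SE 0.0382, FDR 9.73e-08).

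Many genes of protein and energy turnover fell slightly with TMM scaling, under which 4.97% of all genes fell. Of 34 proteasome subunits 14 fell, among them PSMB2 (-0.16), PSMD1 (-0.13) and PSMD11 (-0.11). Of 75 nuclear genes of oxidative phosphorylation 18 fell, such as NDUFS3 (-0.20) of complex I and ATP5F1A (-0.14) of the ATP synthase, and of 13 genes of mitochondrial DNA ND1, ND3, CYTB and ATP6 fell, by 0.18 to 0.21. Of 25 heat shock proteins and chaperones 8 fell, led by HSP90B1 (-0.24), HSPE1 (-0.17) and STIP1 (-0.14). Of 17 class I antigen presentation genes CALR (-0.15), PDIA3 (-0.12) and PSME2 (-0.12) fell. Splicing factors gave 5 lower of 35, such as SF3A3 (-0.12), and lysosomal genes 4 lower of 29, such as CTSB (-0.15). Most of these calls stayed under other scalings, but not with library totals. With RLE scaling 12 proteasome, 15 oxidative phosphorylation, 8 heat shock, 3 splicing and 3 lysosomal genes were lower. Upper quartile scaling gave 11, 13, 7, 2 and 1 in that order, and taking out globin genes gave 13, 16, 8, 4 and 3. By library totals alone none of the proteasome, heat shock, mitochondrial DNA, class I, splicing or lysosomal genes was lower and 2 oxidative phosphorylation genes were, and the list medians of the heat shock (0.0016), oxidative phosphorylation (0.015), class I (0.033), splicing (0.049) and lysosomal genes (0.035) turned positive. With the hemoglobin covariate HSPA9 (-0.15) and HNRNPM (-0.13) still fell.

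In other lists between 0 and 7 members passed, where 4.6% of all genes were higher and 4.97% lower. Of 32 interferon-stimulated genes OAS1Y, an antiviral RNA sensor gene of a family of close copies, fell (-0.71, SE 0.21, FDR 0.0212), with medians of 83.9 CPM on day 21 (16 to 539) and 47.3 on day 56 (8.36 to 525). Of 21 genes of the integrated stress response SLC7A11 (0.45) and TRIB3 (0.12) rose, and 5 fell, among them SHMT2 (-0.17) and PSAT1 (-0.15) of serine and glycine metabolism. Clock genes gave PER3 (0.21) higher of 11 day phase genes and NFIL3 (0.30) higher of 6 night phase genes. Of 11 class II genes BOLA-DQA2 fell and CD74 was at -0.14 (FDR 0.102). No platelet gene of 17 passed by the quasi-likelihood test, with 1 at an unadjusted p below 0.05 and 1 called by DESeq2. No skin or hair gene of 14 passed either (0 at an unadjusted p below 0.05, 1 called by DESeq2), and their summed level had medians of 2.77 and 2.29 CPM on days 21 and 56, with highest libraries at 336 and 268. Of 14 skeletal muscle genes MYH7 was called higher (0.98, FDR 0.0487), at medians below 0.2 CPM.

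Few genes that changed from day 0 to day 14, in other libraries of these steers, were called the opposite way after day 21. Of 5746 genes higher on day 14, 424 (7.38%) were lower on day 56 than on day 21 and 330 (5.74%) were higher. Of 5765 genes lower on day 14, 343 (5.95%) were higher on day 56 and 204 (3.54%) lower. Over all genes 4.97% were lower and 4.6% higher. Of 7545 genes not called between day 0 and day 14, 4.23% were lower and 2.69% higher. The median log2 change from day 21 to day 56 was -0.0036 for genes higher on day 14 and 0.008 for genes lower then. For all 10 tested genes of the globin list, AHSP included, the first step was up and the second down. HBA1 had medians of 784, 13800, 15100 and 1280 CPM on days 0, 14, 21 and 56, and ALAS2 of 29.1, 388, 361 and 67.5. CXCR1 (315, 203, 174 and 230 CPM) and SGK1 (136, 98.2, 93.6 and 105 CPM) had higher medians on day 56 than on day 21, below those of day 0. IL5RA went on in 1 direction, with medians of 3.50, 5.59, 6.48 and 13.4 CPM, as did ALOX15 with 12.5, 28.3, 31.1 and 65.6. CPT1A went from a median of 94.1 CPM on day 0 to 42.6 on day 14 and had its lowest median on day 56. TAOK1, LYST and ZKSCAN8, a protein kinase, a regulator of lysosome traffic and a zinc finger protein, had fallen by 5.81, 5.13 and 3.82 on the log2 scale by day 14, and their values on day 56 did not separate from day 21 (log2 fold change -1.12, -0.37 and 1.01, FDR 0.786, 0.893 and 0.629). TAOK1 was listed at 0 in 3 libraries on day 0, 22 on day 21 and 23 on day 56, of 42 each. Libraries above 10 CPM on days 0, 21 and 56 numbered 36, 16 and 12 for TAOK1 and 37, 9 and 11 for LYST. For ZKSCAN8 they numbered 19, 7 and 12. Single steers switched both ways, with TAOK1 going from 32 to 0 CPM in Ceft10 and from 0 to 28.2 CPM in Enro6. The log2 changes of these 3 genes therefore do not describe a graded level.

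**Figure D3:**
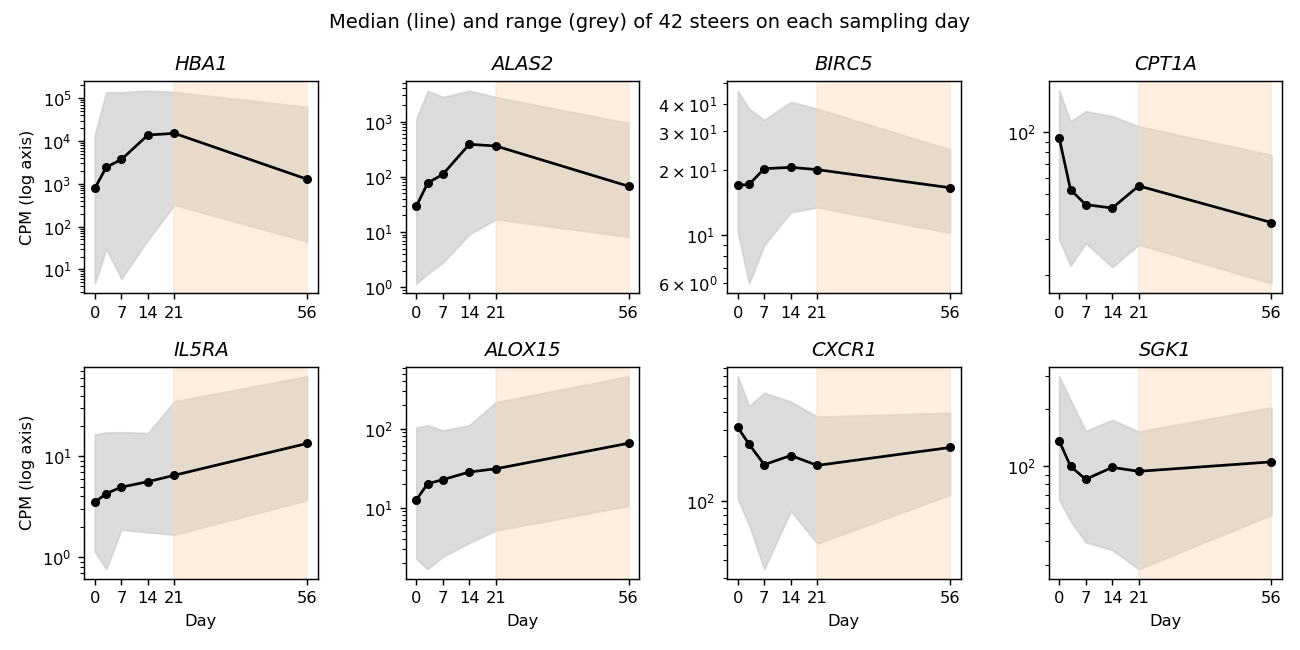
Levels of 8 genes (CPM, log axis) over the 6 sampling days, with the median of 42 steers as a line, the range of the steers in grey and the interval from day 21 to day 56 shaded. HBA1 and ALAS2 turned down after day 21, IL5RA and ALOX15 had their highest median on day 56, and CPT1A its lowest.

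The change was next taken within each group from 1 fit with a day term for every group. OXYT had 1362 genes called (7.15%, with 3.31% higher and 3.84% lower), TILD 193 (1.01%), FLOR 70 (0.367%), ENRO 69 (0.362%), NC 55 (0.289%), CEFT 12 (0.063%) and TULA 0 (0.0%). In TULA 1514 genes had an unadjusted p below 0.05 by the quasi-likelihood test and 1 was called by the likelihood ratio test. The groups differed in their change for 967 genes (5.07%) by the quasi-likelihood F test over the 6 differences from NC, and for 503 after ComBat_seq by lane. Set against NC alone, 140 genes changed differently in OXYT, 5 in TILD and 1 in FLOR. For ENRO, TULA and CEFT there were 0 by the quasi-likelihood test, with 450, 1283 and 2545 genes at an unadjusted p below 0.05 and 2, 3 and 2 by the likelihood ratio test. Over the mean of the 36 treated steers against NC there were 0, with 1258 at an unadjusted p below 0.05 and 2 by the likelihood ratio test.

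Ribosomal protein genes were frequent among these differences. Of 78 cytosolic ribosomal protein genes 44 rose in OXYT, and the change of 35 differed between groups (44.9%, against 5.07% of all genes). Their median log2 change was 0.40 in OXYT, 0.13 in FLOR and between -0.12 and -0.0078 in the other groups. Against NC, 12 of them rose more in OXYT (0.152% of all genes did). Over all 42 steers the list gave 3 genes higher and 2 lower, with a median of 0.032. In TILD 3 of the 78 and 7 of 75 oxidative phosphorylation genes fell (0.52% of all genes fell there), while 11 of the latter rose in OXYT. The ribosomal protein median in OXYT stayed between 0.37 and 0.42 with RLE scaling, without globin genes or after ComBat_seq by lane. The number that differed between groups fell from 35 to 26 of 78 after ComBat_seq by lane. For the 75 oxidative phosphorylation genes it fell from 16 to 4. CEFT, on the same lane as OXYT, had a median of -0.069, and the mean per steer lay between 0.017 and 0.77 in the 6 OXYT steers, with 1 FLOR steer, Flor4, higher at 1.22.

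RPL32, a protein of the large subunit, and KIF1B had the smallest p in the F test. Its level in OXYT steers on day 21 was 592, 533, 580, 549, 641 and 511 CPM in Oxyt1, Oxyt2, Oxyt4, Oxyt5, Oxyt6 and Oxyt9, and on day 56, in the same order, 620, 612, 1030, 913, 1090 and 960 CPM. Oxyt1 and Oxyt2 moved little, and in the other 4 steers day 56 lay above every day 21 value of the group. The change was 0.56 in OXYT (SE 0.0794, FDR 0.000258), 0.12 in NC and -0.21 in TULA, and it differed between groups (FDR 0.00894). RPL23A, of the same subunit, rose by 0.53 in OXYT and was at -0.34 in TILD (FDR 0.0587). KIF1B, a kinesin motor, went the other way, from 16.7, 22.5, 20.5, 19.6, 16.2 and 21.3 CPM to 17.1, 14.5, 15.4, 13.7, 11 and 13.2 CPM in these OXYT steers (-0.49, SE 0.0695, FDR 0.000258), while the other groups ran from -0.036 to 0.18. ZNF787, a zinc finger protein, and ATP6V1A, the catalytic subunit of the proton pump of lysosomes, changed by 0.35 and -0.39 in OXYT. In TILD these 2 were at -0.28 (FDR 0.0544) and 0.31 (FDR 0.0622).

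**Figure D4:**
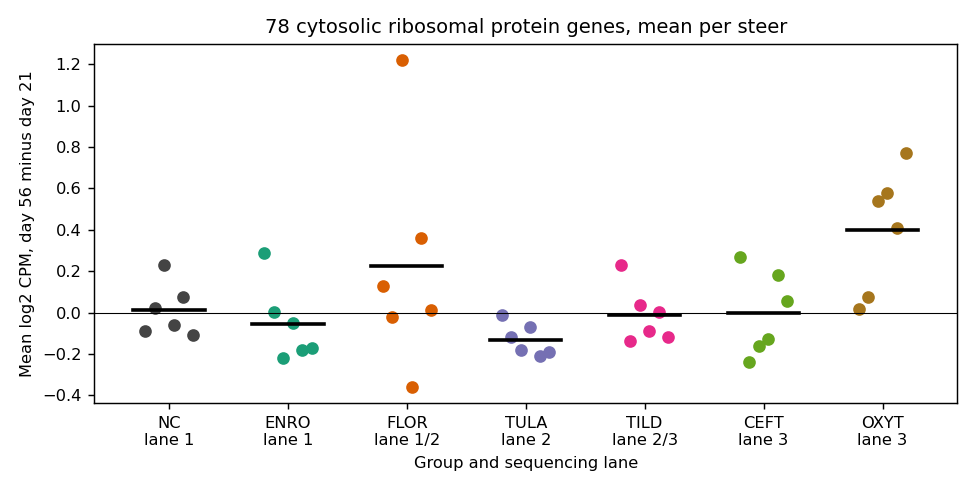
Mean log2 CPM of 78 cytosolic ribosomal protein genes on day 56 minus day 21, 1 point per steer, by group with its sequencing lanes, and black bars for the mean of 6 steers. All 6 OXYT steers lie above 0, as does the highest FLOR steer, while CEFT steers of the same lane lie on both sides of 0.

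Of the genes followed by group here, IL5RA, ALOX15, BIRC5, CPT1A and HBA1 did not pass the F test between groups. CXCR1, PGLYRP4, MEX3B and LOC100295883 did. A gene that did not pass may still differ between groups. On simulated counts with CEFT alone changed, this test recovered 11.9% of genes changed 1.5-fold. IL5RA changed by 0.056 in OXYT (FDR 0.947) and by 0.68 to 1.34 in the other groups, and the difference between groups did not pass (F test FDR 0.157). ALOX15 gave -0.11 in OXYT and 0.80 to 1.53 elsewhere (F test FDR 0.0948). BIRC5 lay between -0.46 and -0.16 in all 7 groups (F test FDR 0.865), CPT1A between -0.86 and -0.29 (0.303) and HBA1 between -4.27 and -1.95 (0.865). CXCR1 differed between groups (F test FDR 0.0418), with 0.80 in FLOR, 0.58 in NC, 0.13 in OXYT and -0.15 in TILD. After ComBat_seq by lane no gene of the mature neutrophil list, CXCR1 included, passed the F test. The genes with the smallest p within a group were LOC100295883 in NC (0.81), YBX1, a cold shock protein that binds RNA, in ENRO (-0.44), PGLYRP4, a peptidoglycan recognition protein, in FLOR (1.14) and CEFT (0.94), MEX3B, an RNA-binding protein, in TILD (1.1) and RPL32 in OXYT. PGLYRP4, MEX3B and LOC100295883 differed between groups as well (F test FDR 0.0244, 0.0421 and 0.0247).

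**Figure D5:**
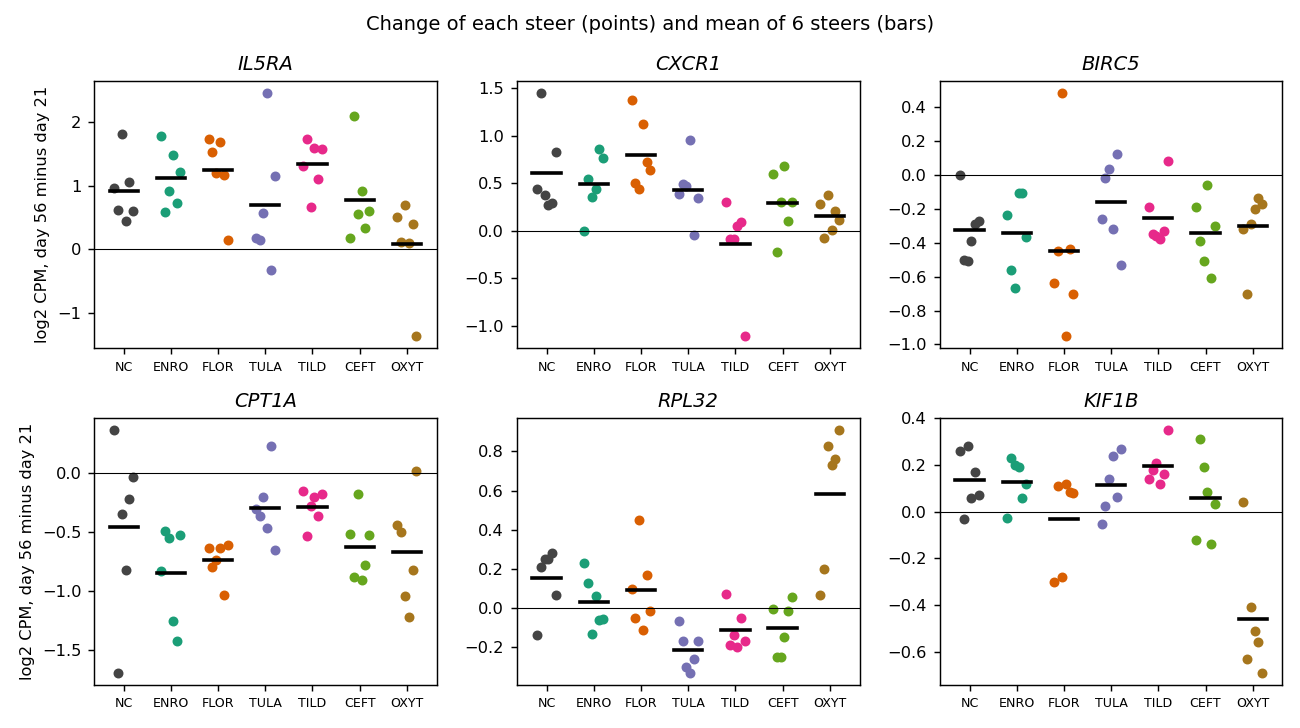
Log2 CPM on day 56 minus day 21 for each steer (points) and the mean of 6 steers (bars) in the 7 groups, for 6 genes. CPT1A fell in 39 of 42 steers and IL5RA rose in 40 of 42, while RPL32 and KIF1B stand apart in OXYT.

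On average, steers lay slightly closer together on day 56. The Euclidean distance of a steer's log2 CPM profile over the 19056 genes from the mean of the other 41 steers ran from 92.8 to 138 on day 21 (111 ± 10.5, SD, n = 42) and from 94.2 to 127 on day 56 (107 ± 8.46). The difference was -3.76 ± 8.34 (SD), and 29 of 42 steers were closer on day 56 (two-sided sign-flip permutation test, p = 0.00586). Against the other 5 steers of the same group, the difference was -2.99 ± 8.25 (p = 0.0232, same permutation test). Each distance uses the values of the other steers, so the 42 differences are not independent. The permutation test treats them as if they were, and its p-values here are approximate. Ceft3 lay farthest out on day 56 at 127 and NC1 and Ceft3 on day 21 at 138 each.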

How the data were processed

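Whole blood was collected into PAXgene tubes and sequenced as stranded mRNA libraries. The deposited table holds estimated counts per gene, whole numbers that the authors made from reads trimmed with Trimmomatic (0.39), aligned with HISAT2 (2.1.1) and assembled with StringTie (2.2.0), versions per the labels. Here, a gene entered the tests (19056 of 33282 did) if 12 or more libraries of the series exceeded a CPM of 0.2, TMM factors were taken, and day 56 was tested against day 21 with the quasi-likelihood test of edgeR (4.0.16 in R 4.3.3) and steer as a fixed block. P-values were adjusted by Benjamini-Hochberg over all genes tested, with FDR below 0.05 called. A second fit with a day term for each group gave the change within groups, the differences from NC and an F test over them. The pairing came from the steer in the labels: deviations from the group mean correlated between the 2 libraries of a steer at a median of 0.363 (over 0.1 in 42 of 42) and between different steers at -0.0723.

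Single values were tested by sign-flip permutation over steers with 100000 resamples. Hemoglobin share is the percent of counts in globin genes. Named genes were the 12 with the largest change each way among called genes with a mean of at least 5 CPM and at least 34 steers in 1 direction, up to 4 of each list by p and its member with the highest CPM, the 5 first of the F test, the first gene within each group, and TAOK1, LYST, ZKSCAN8, HBA1, HBB and ALAS2. Other list members named as examples, CPT1A, SLC25A20, FCGRT and SOCS3 were chosen after their values were seen. The comparison, the gene lists and the rules were chosen with earlier results of these data known. On simulated counts (6000 genes) the paired fit recovered 71.6% of genes changed 1.25-fold and 92.5% of those changed 1.5-fold, with 4.35% of calls false. The F test between groups, with CEFT alone changed, recovered 11.9% of genes changed 1.5-fold, 61.2% at 2-fold and 83.3% at 4-fold. Of its calls 3.7% were false. Simulated counts were drawn separately for each gene, so variation that genes share in real libraries is not in these figures. SD is the spread between steers, and SE is the standard error of a log2 fold change from the quasi-likelihood fit. Alternatives comprised other tests, scalings and filters, ComBat_seq by lane, single lanes, each group left out, all 6 days in 1 fit, no block, and 2 chosen after seeing the data (without Ceft4, and the hemoglobin covariate). The authors' genome build was ARS-UCD1.3, so no coordinates are given. Some genes that the naming rule covers are not reported here.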

Additional observations from a re-analysis of the deposited data

Results flagged for a closer look

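The changes of 5 measures were checked for a steer far from the other 5 of its group, and 4 of 35 such checks found one, where chance alone gives about 1 in 20. For IL5RA, Flor8 changed by 0.14 on the log2 scale against 1.17 to 1.73 in the other FLOR steers, and Oxyt9 by -1.37 against 0.091 to 0.7 in the other OXYT steers. For BIRC5, Flor4 changed by 0.48 against -0.95 to -0.44 in the other FLOR steers, and Oxyt2 by -0.7 against -0.32 to -0.14 in the other OXYT steers.

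The change from day 21 to day 56 differed between groups for 967 genes by the F test. The 5 with the smallest p were KIF1B and RPL32 (FDR 0.00894 each) and ZNF787, RPL23A and ATP6V1A (FDR 0.0118 each). Drug, pen, sampling order and, for most groups, sequencing lane cannot be told apart in these differences.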

How the results depend on the processing

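Of 876 genes higher and 947 lower, the counts moved by over 1.5 times with no replicate block (98 and 345, 423 of the 1823 genes still called), with library totals (3961 and 314), on lane 1 (183 and 132), lane 2 (189 and 300) and lane 3 alone (2 and 4), in NC alone (0 and 0 by the quasi-likelihood test, 1289 genes at an unadjusted p below 0.05), with the hemoglobin share as a covariate (61 and 44) and, for the lower genes, with all 6 days in 1 fit (537). Fits on 1 lane or group hold fewer steers. Leaving out each group gave 648 to 943 higher and 633 to 976 lower. The 967 genes that differed between groups became 503 after ComBat_seq by lane. All 6 days in 1 fit was not run for that test. The hemoglobin log2 ratio of -2.67 lay between -2.84 and -2.49 without each group, and the spread between steers stayed lower on day 56 under each of its alternatives. Of 196 named genes under all settings, 20 values of called genes changed sign: with the hemoglobin covariate HBB (0.11) and HBM (0.39), which the covariate itself contains, ALAS2 (0.046), SLC4A1 (0.31), CATHL5 (0.43), DMTN (0.2), GYPB (0.33) and ADD2 (0.37), in NC alone BOLA-DQA2 (0.34), STIP1 (0.01), HSPA9 (0.0057), CYTB (0.088), ND3 (0.1), HNRNPL (0.0043) and PSAT1 (0.048), on lane 3 GZMK (0.02) and MYD88 (-0.0053), on lane 2 RPS21 (-0.0082), and with library totals U2AF1 (0.0079) and HNRNPL (0.033). The cause was not tested. A further 763 values kept their sign and lost the call, and 53 gained one. With globin genes taken out, the globin list held AHSP alone, at -0.82. Each group has 6 steers, which limits what its own change can show.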
